A study of Mus musculus with 30 samples.

Results

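The offspring described here are 5 mice that were heterozygous for Gzf1 and had a Gzf1 knockout mother and a wild-type father. Tail DNA from each was sequenced over the IG-CGI, a CpG island in the control region of the imprinted Dlk1-Dio3 domain, and each animal gave 1 library. They were chosen by their library names and are 5 of the 30 samples of the study. The reference was the library of a wild-type adult tail, and the library of a Gzf1 knockout adult tail served as an upper reference. The titles number the heterozygotes as adult mice 1 to 5 and the tissue is given as adult tail, but the library names and the group label call them pups, with the numbers 1, 3, 5, 20 and 30. Their age may therefore differ from that of the adult reference. The sources used here do not give strain, sex, litter or the design of the knockout allele, and whether the 5 shared a mother is not known. Each p-value from a permutation of libraries measures the spread between these libraries only. Each p-value from a test on reads covers counting error only.

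The Dlk1-Dio3 domain is imprinted, which means that its genes are expressed from the copy of only 1 parent. Its intergenic control region lies on chromosome 12 between Dlk1 (109452485 to 109463336 in mm10), a gene expressed from the paternal copy, and Meg3 (109540996 to 109571729), a long non-coding RNA gene expressed from the maternal copy. In normal tissue the paternal copy of this region carries methylation laid down in the male germline and the maternal copy is unmethylated, so reads from tail DNA fall into a methylated and an unmethylated population. Gzf1 is a zinc finger protein, and its gene lies on chromosome 2 (148679384 to 148692949). A heterozygote from this cross came from an egg without functional Gzf1 and received its functional copy from the father. The comparison asks what the IG-CGI looks like in the tail of such offspring.

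Bisulfite converts unmethylated cytosine and leaves methylated cytosine, so each read gives a call at each CpG. Bisulfite does not separate 5-methylcytosine from 5-hydroxymethylcytosine. The amplicon reference holds 29 CpGs at positions 55 to 273, counted in bases from its start, and CpGs are named here by that position. The amplicon was not placed at genome coordinates. The heterozygous libraries held 1103 to 1717 reads and the wild-type tail 1741, with 1050 to 1698 calls per CpG in the heterozygotes, and 80.8% to 82.4% of their reads were called at every CpG against 76.9% in the wild type. All counts are of PCR reads without molecular identifiers, so intervals and read-level tests cover counting error only. The read names carry a prefix, and what it stands for was not established. It is shared by the 5 heterozygotes and a knockout newborn found dead, while the adult wild-type and knockout tails share another. Any batch that it marks cannot be told apart from genotype in the comparison with wild type.

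The patterns of whole reads show the 2 populations directly. Each pattern below is 1 read across the 29 CpGs from position 55 to position 273, with Z for a methylated and z for an unmethylated call, and the 3 most frequent patterns of each population are shown because they carry the forms of variation described further on.
fully methylated: ZZZZZZZZZZZZZZZZZZZZZZZZZZZZZ
gap at CpG 131: ZZZZZZzZZZZZZZZZZZZZZZZZZZZZZ
gap at CpG 273: ZZZZZZZZZZZZZZZZZZZZZZZZZZZZz
fully unmethylated: zzzzzzzzzzzzzzzzzzzzzzzzzzzzz
stray call at CpG 59: zZzzzzzzzzzzzzzzzzzzzzzzzzzzz
stray call at CpG 72: zzZzzzzzzzzzzzzzzzzzzzzzzzzzz

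Among reads called at every CpG, the fully methylated pattern made up 15.5%, 18.7%, 16.8%, 16.02% and 16.6% of the reads of heterozygotes 1 to 5, against 18.3% in the wild type. The fully unmethylated pattern made up 9.70%, 11.5%, 8.20%, 12.9% and 8.83%, against 10.2%. Both patterns were therefore common in every heterozygote. The read with a stray call at CpG 59 alone held 3.73% ± 0.320 (SD, n = 5) of heterozygous and 3.88% of wild-type reads, and it was nearly as frequent in each animal. The read with a gap at CpG 131 alone ranged from 0.773% to 2.09% in the heterozygotes and was at 0.971% in the wild type. In the knockout tail the fully unmethylated pattern was at 3.28% and the stray at CpG 59 alone occurred in 1 of 1220 such reads.

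The mean methylation level of the IG-CGI lay close to that of the wild-type tail and far below that of the knockout tail. It was 47.0%, 53.4%, 46.9%, 47.0% and 48.5% in heterozygotes 1 to 5, with a mean of 48.6% ± 2.78 (SD, n = 5). The wild type was at 51.9% and the knockout at 80.6%. Heterozygote 2 lay above the wild type and the other 4 below it, so the wild-type value fell within the range of the heterozygotes. The difference of -3.32 points was 1.19 times the SD between animals in size, and an exact two-sided permutation test over the 6 libraries gave p = 0.333 (adjusted p = 1.00 over 6 measures). The smallest p this design allows is 0.167. Counting error alone gave each level a standard error over reads of 0.995 to 1.25 points in the heterozygotes and 1.01 points in the wild type. Without heterozygote 2 the difference was -4.53 points. When only reads called at every CpG were used, all 5 heterozygotes lay below the wild type, by -4.42 points on average (exact permutation p = 0.167).

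**Figure D1:**
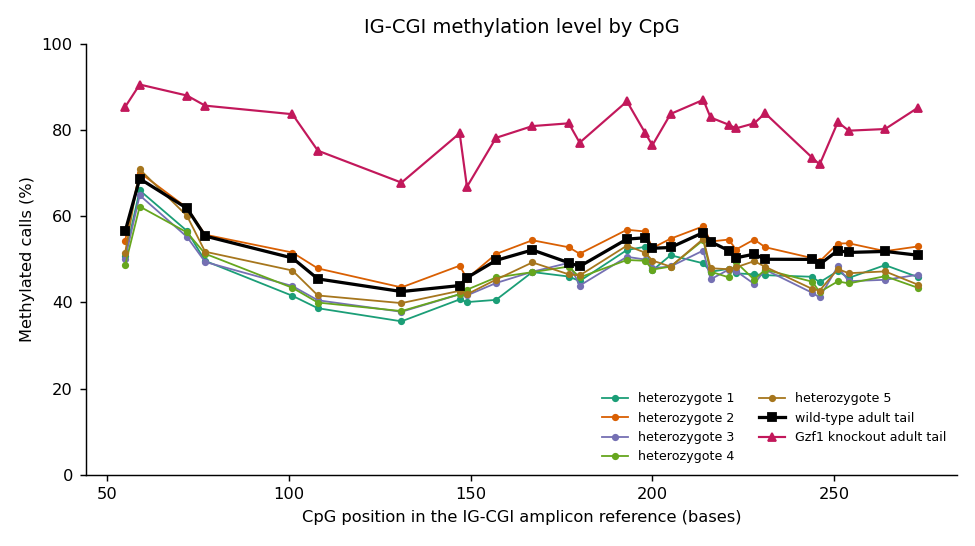
Percentage of calls methylated (y axis) at each of the 29 CpGs by position in the amplicon reference in bases (x axis), with 1 line per library. The 5 heterozygotes (thin lines with circles) surround or lie under the wild-type tail (black squares), and the knockout tail (triangles) lies above all 5 at every CpG.

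Along the amplicon the heterozygotes had the same contour as the wild type. CpG 59 was the most methylated position, at 66.8% ± 3.64, followed by CpG 72 at 58.0% ± 2.86 and CpG 214 at 53.6% ± 3.22 (SD, n = 5). The least methylated were CpG 131 at 39.0% ± 2.95, CpG 108 at 41.7% ± 3.61 and CpG 149 at 42.4% ± 2.03. In the wild type these 6 CpGs were at 68.7%, 61.9%, 56.2%, 42.5%, 45.5% and 45.7%. Across the 29 CpGs the heterozygous mean correlated with the wild-type level at r = 0.968 and with the knockout level at r = 0.784. These values describe CpGs that lie on the same reads and are not tests. The amplicon thus has a higher start, with 54.6% ± 2.81 over the 5 CpGs from 55 to 101, a trough of 41.6% ± 2.87 over the 4 CpGs from 108 to 149, and 48.4% ± 2.84 over the 20 CpGs from 157 to 273. The wild-type tail was 3.93, 2.85 and 3.26 points away from these means and higher in each segment. The segments were set with the values known.

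Averaged over the 5 animals every CpG lay below the wild type by value, from -0.65 points at CpG 177 to -5.75 points at CpG 216. Heterozygote 2 alone lay above the wild type at 27 of the 29 CpGs. With identical read patterns counted once, the mean difference was positive at CpG 147 (1.93 points) and CpG 177 (0.23 points). CpG 216 was at 47.1%, 54.2%, 45.4%, 47.2% and 47.9% in heterozygotes 1 to 5 and at 54.1% in the wild type. Heterozygote 2 had the wild-type level there and the other 4 were lower. The levels of all 5 lay under the wild type at 2 of 29 CpGs (6.9%), and at none did all 5 lie above it. These were CpG 55, with 48.6% to 54.4% against 56.5%, and CpG 149, with 40.1% to 45.5% against 45.7%. With 6 libraries that are alike, 1 of them is the highest at about 1 in 6 CpGs. The smallest differences after CpG 177 were at CpG 147, with -0.77 points, and CpG 231, with -1.49 points, and the other large ones were at CpG 55 with -5.37 and CpG 101 with -4.77 points.

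Read-level tests of single libraries gave different answers for different animals. By Fisher's exact test at each CpG against the wild-type library, with Benjamini-Hochberg adjustment over the 29 CpGs, 18 CpGs were lower in heterozygote 1 (62.1%), 25 in heterozygote 3 (86.2%), 20 in heterozygote 4 (69%) and 6 in heterozygote 5 (20.7%). None was called in heterozygote 2, where 2 CpGs had an unadjusted p under 0.05. No CpG was higher in any of the 5. The largest difference in any animal was 9.16 points, at CpG 157 in heterozygote 1, and none reached the 20 points set as the minimum for a call. No CpG passed Fisher's exact test in every animal, with or without that minimum, and the count at an unadjusted p under 0.05 in every animal was 0 too. Without heterozygote 2, 5 CpGs passed in the other 4 with no minimum difference. All of these tests use the same wild-type library, and the CpGs of a library lie on the same reads, so the tests are not independent of each other. The number of CpGs that passed in an animal is therefore not a number of separate differences.

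The libraries of the heterozygotes differed among themselves by more than the counting error of reads. With 1 library per animal and no molecular identifiers, differences between animals and between PCRs cannot be told apart. Heterozygote 2 had the highest level of the 5 at 28 of 29 CpGs, and heterozygote 5 at the remaining CpG, 59. The SD between animals was 3.09 points at the median CpG, from 2.03 at CpG 149 to 4.17 at CpG 228, and it was 2.28 times the SD expected from counting at the median CpG. In pairwise Fisher's exact tests, 6 of the 10 pairs of heterozygotes differed at 1 or more CpGs after adjustment. The 4 pairs with heterozygote 2 differed at 21 to 29 CpGs, and of the 6 pairs without it, 2 differed, each at 1 CpG. The largest difference in mean level among the 10 pairs was 6.50 points, for heterozygote 2 minus heterozygote 3. Among the 6 pairs without heterozygote 2 the largest was -1.61 points, for heterozygote 3 minus heterozygote 5. The difference from the wild type of -3.32 points is an average over the 5 animals and not a largest value. No pair was alike in every test of CpG levels, gaps, stray calls, read classes and read patterns, and the libraries were counted as 5 animals.

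**Figure D2:**
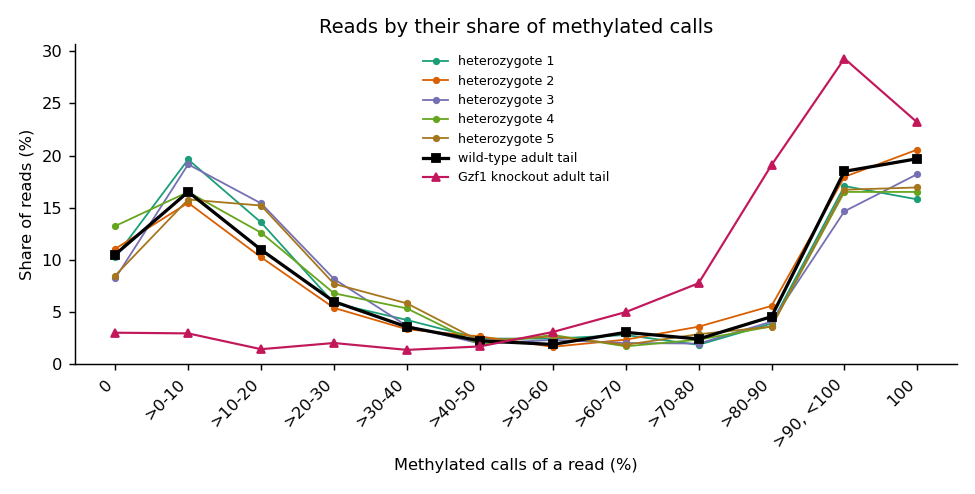
Share of reads in percent (y axis) by the percentage of a read's calls that are methylated, in bins (x axis), for reads with at least 5 calls and 1 line per library. The heterozygotes and the wild-type tail have a peak at either end and few reads in the middle, while the knockout tail has its peak at the methylated end only.

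Reads of the heterozygotes formed a methylated and an unmethylated population, with few reads between them. A read needed 5 or more calls to enter a class. It was mostly methylated when at least 70% of its calls were methylated, mostly unmethylated when at most 30% were, and otherwise between. Mostly methylated reads made up 38.7%, 47.7%, 39.0%, 39.0% and 40.2% in heterozygotes 1 to 5, with a mean of 40.9% ± 3.86 (SD, n = 5), against 45.2% in the wild type (Wilson interval 42.8 to 47.5). Mostly unmethylated reads made up 49.4%, 42.2%, 51.0%, 49.2% and 47.2%, with a mean of 47.8% ± 3.4, against 44.0% (41.7 to 46.4). Heterozygote 2 was the only animal with more methylated than unmethylated reads, at 1.13 methylated per unmethylated read. The others had 0.764 to 0.850, and the wild type had 1.03. In the knockout tail this ratio was 8.37, with 79.3% of reads mostly methylated and 9.48% mostly unmethylated.

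In both class shares the wild type lay within the range of the 5 heterozygotes. The difference was -4.27 points for mostly methylated reads (exact permutation p = 0.333) and 3.77 points for mostly unmethylated reads (exact permutation p = 0.50), with adjusted p = 1.00 over the 6 measures for both. With only reads called at every CpG, all 5 heterozygotes lay below the wild type in mostly methylated reads (-5.66 points, exact permutation p = 0.167, the smallest possible) and above it in mostly unmethylated reads (4.53 points, exact permutation p = 0.333). With class bounds of 90% and 10% the difference in mostly unmethylated reads was 0.544 points. Without heterozygote 2, the other 4 all lay below the wild type in mostly methylated reads, by -5.98 points on average (SD 0.659). In mostly unmethylated reads these 4 all lay above it, by 5.17 points on average (SD 1.54). By Fisher's exact test the share of mostly methylated reads differed between heterozygotes in 4 of 10 pairs, with adjusted p-values from 3.69e-06 to 8.94e-05 over the 10 pairs, and these were the 4 pairs with heterozygote 2. Between reads made up 11.98%, 10.1%, 10.05%, 11.8% and 12.6%, with a mean of 11.3% ± 1.18, against 10.8% for the wild-type and 11.2% for the knockout tail (difference from wild type 0.499 points, exact permutation p = 1.00). That difference was 3.41 points with bounds of 90% and 10%.

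**Figure D3:**
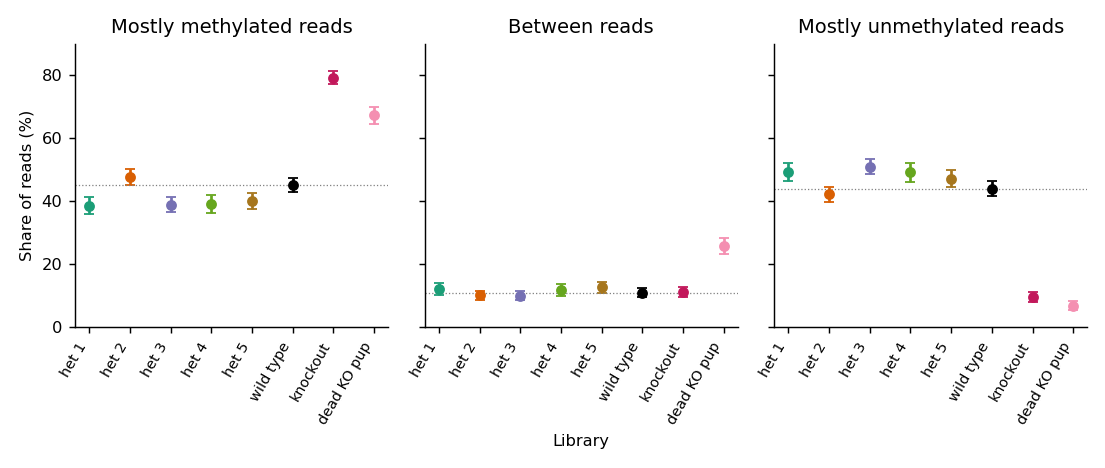
Share of reads in percent (y axis) that were mostly methylated, between or mostly unmethylated in each library (x axis), with 95% Wilson intervals as bars and the wild-type value as a dotted line. The 5 heterozygotes sit around the wild-type line in each class, with heterozygote 2 on the other side of it from the rest in the mostly methylated and mostly unmethylated classes.

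Most of the difference in mean read level lay in the class shares. When the difference in mean read level, -3.59 points on average over the animals, was split into these parts, the class shares made up -3.51 points and the levels within the classes -0.07 points. For heterozygote 3 the parts were -5.68 and 0.59 points, and for heterozygote 2 they were 1.93 and -0.60 points. Mostly methylated reads had a mean level of 95.4% ± 0.337 (SD, n = 5) in the heterozygotes and 95.5% in the wild type, against 92.8% in the knockout tail. Mostly unmethylated reads had 8.95% ± 0.876 and 8.37%, against 9.05% in the knockout tail. Between reads had a lower level in the 5 heterozygotes, with 44.9% to 47.8% against 49.1%.

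Gaps, meaning unmethylated calls on mostly methylated reads with at least 20 calls, did not differ in rate from the wild type beyond the spread between animals. The rate per 100 calls was 4.52, 5.21, 4.21, 4.45 and 4.53 in heterozygotes 1 to 5, with a mean of 4.58 ± 0.372 (SD, n = 5), against 4.49 in the wild type. The wild-type value lay within the range of the heterozygotes (exact permutation p = 0.667, adjusted p = 1.00 over 6 measures), and the sign of the difference of 0.090 changed with the bounds of the read classes (-0.298 with bounds of 60% and 40%). The knockout tail had 7.25 gaps per 100 calls and the dead knockout newborn 10.1. Reads with no gap made up 42.6% ± 2.10 of the mostly methylated reads of heterozygotes and 42.9% of those of the wild type. Exactly 1 gap was found on 30.4% ± 2.68 and 27.6%, and 3 or more on 15.9% ± 1.83 and 15.2%. Reads with exactly 2 gaps made up 8.78% to 13.6% in the heterozygotes and 14.3% in the wild type, which here lay above all 5. In the knockout tail 28.9% of such reads had no gap and 33.6% had 3 or more.

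Gaps were not spread evenly along the amplicon. They were most frequent at CpG 131, with 13.3% ± 2.42 of calls, CpG 55, with 10.47% ± 1.24, and CpG 108, with 9.41% ± 1.58 (SD, n = 5). They were rarest at CpG 198 (1.52% ± 0.984), CpG 214 (1.52% ± 1.08) and CpG 223 (1.72% ± 1.09). With identical read patterns counted once, so that the frequent fully methylated read weighs no more than any other, the first 3 rates were 23.4%, 21.6% and 19.5%. The wild-type rates at these 6 CpGs, over all reads, were 11.9%, 7.10%, 9.58%, 1.72%, 1.73% and 3.07%. At CpG 131 the animals had 15.4%, 16.3%, 11.3%, 11.2% and 12.1%, so heterozygotes 1, 2 and 5 lay above the wild type and 3 and 4 below it.

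At CpG 55 the gap rate was 10.4%, 8.75%, 11.7%, 11.6% and 9.90%, above the 7.10% of the wild type in each animal. Fisher's exact test passed there in heterozygote 3 only (adjusted p = 0.0210). In all, the 5 heterozygotes lay above the wild type in gap rate at 5 of 29 CpGs (17.2%), namely CpGs 55, 77, 101, 254 and 273, and below it at 3 (10.3%), namely CpGs 221, 228 and 246. With 6 libraries that are alike, each would be expected at about 1 in 6 CpGs. No CpG passed Fisher's exact test in all 5, adjusted or unadjusted, and few passed after adjustment in single animals. They were 1 higher CpG in heterozygote 2 (3.45%), 4 lower (13.8%) and 1 higher (3.45%) in heterozygote 3, 1 higher in heterozygote 4 (3.45%) and 0 in heterozygotes 1 and 5. Without a replicated wild type, the spread of these rates between wild-type animals is not known.

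**Figure D4:**
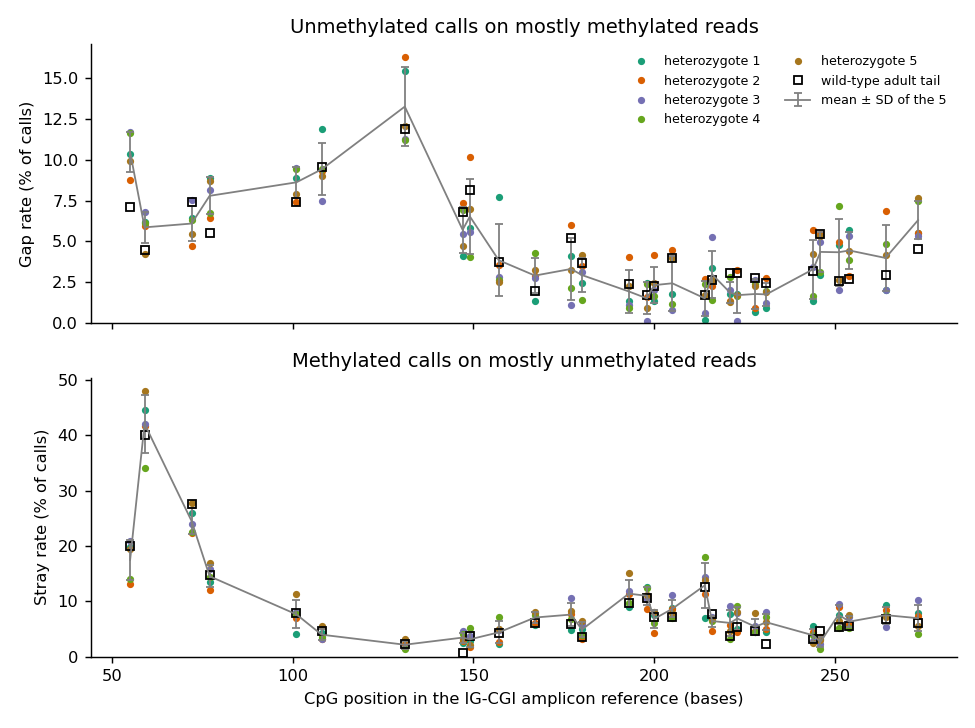
Unmethylated calls on mostly methylated reads (upper panel) and methylated calls on mostly unmethylated reads (lower panel), each as a percentage of calls (y axis), by CpG position in bases (x axis). Circles are the 5 heterozygotes, the grey line and bars their mean ± SD, and open squares the wild-type tail; gaps peak at CpG 131 and stray calls at CpG 59, where the heterozygous means are 13.3% and 42.1%.

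Stray calls, meaning methylated calls on mostly unmethylated reads with at least 20 calls, did not differ in rate from the wild type beyond the spread between animals. The rate per 100 calls was 8.59, 8.01, 9.78, 8.33 and 9.87 in heterozygotes 1 to 5, with a mean of 8.92 ± 0.856 (SD, n = 5), against 8.40 for the wild-type and 8.97 for the knockout tail. Heterozygotes 2 and 4 lay below the wild type and the other 3 above it (difference 0.518, exact permutation p = 0.833, adjusted p = 1.00 over 6 measures). Mostly unmethylated reads with no stray call made up 20%, 25.5%, 15.6%, 26.2% and 17.8%, against 23.3% in the wild type, and those with 3 or more made up 42.1% ± 4.98 against 38.7%. The animals with the most stray calls, 3 and 5, had the fewest reads without any. Most mostly unmethylated reads thus carried 1 or more methylated calls, in these animals and in the wild type.

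The start of the amplicon held a large part of the stray calls. CpG 59 was methylated in 44.6%, 41.6%, 42.1%, 34.0% and 48.1% of the mostly unmethylated reads of heterozygotes 1 to 5, against 40.1% in the wild type. Heterozygote 4 alone lay below the wild type there. CpG 72 followed with 24.5% ± 2.31 and CpG 55 with 17.5% ± 3.58 (SD, n = 5), against 27.6% and 19.97%. Over the 5 CpGs from 55 to 101 the stray rate was 21.2% ± 2.46 against 22.1% in the wild type, and over the 4 CpGs from 108 to 149 it was 3.2% ± 0.428 against 2.83%. Over the 20 CpGs from 157 to 273 it was 7.05% ± 0.699 against 6.12%, and in this segment all 5 heterozygotes lay above the wild type. The lowest rates were at CpG 131 (2.18% ± 0.715), CpG 246 (2.68% ± 0.885) and CpG 149 (3.15% ± 1.39). By the mean over the 5 animals, CpG 131 therefore had the most gaps and the fewest stray calls, and CpG 59 the most stray calls. In heterozygotes 3 and 4 gaps were more frequent at CpG 55 (11.7% and 11.6%) than at CpG 131 (11.3% and 11.2%). The stray rate at CpG 131 was the lowest of all CpGs in heterozygote 3 only.

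CpG 147 and CpG 231, chosen after their values were seen, stood apart in the stray calls. At CpG 147 the rate was 2.50%, 2.92%, 4.69%, 4.07% and 3.16% in the heterozygotes, against 0.670% in the wild type. At CpG 231 it was 4.51%, 5.06%, 8.10%, 7.18% and 6.34%, against 2.28%. All 5 animals lay above the wild type at these 2 of 29 CpGs (6.9%) and below it at 2 others (6.9%), CpGs 216 and 246. Either would be expected at about 1 in 6 CpGs with 6 libraries that are alike. Both CpG 147 and CpG 231 had an unadjusted p under 0.05 by Fisher's exact test in each animal. These tests share the wild-type library, with 746 mostly unmethylated reads, and are not independent. Its 0.670% at CpG 147 lay near the 0.402% that 3 reads make up. After adjustment of the Fisher's exact tests CpG 147 passed in heterozygotes 2 to 5 (adjusted p from 5.71e-06 to 0.0215) and not in heterozygote 1 (adjusted p = 0.0631), and CpG 231 passed in heterozygotes 3 to 5 only. In heterozygotes 1 to 5, 1 (3.45%), 1 (3.45%), 7 (24.1%), 2 (6.9%) and 4 (13.8%) CpGs were higher, and 1 was lower (3.45%) in each of heterozygotes 1 to 4 and none in heterozygote 5. The knockout tail, with 143 such reads, was at 0.699% at CpG 147 and at 12.7% at CpG 231. The dead knockout newborn, which has the run prefix of the heterozygotes and 78 such reads, was at 8.97% and 6.49%, above the wild type at both.

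Some shares of gaps and stray calls by run length placed the wild-type library outside the range of the heterozygotes. Of the stray calls, 53.6%, 55.3%, 54.0%, 53.7% and 54.0% stood alone in heterozygotes 1 to 5, against 47.0% in the wild type. Such a call had no methylated call next to it on the read, and calls at either end of a read were included. Runs of 3 or more held 22.8% ± 1.32 of the stray calls against 29.5%. For gaps in such runs the order was the other way. Runs of 3 or more held 31.2%, 31.0%, 33.1%, 33.9% and 33.1% of the gaps, against 26.9% in the wild type. The wild type lay outside the range of the 5 animals in 12 of the 47 measures computed per library (25.5%). With 6 libraries that are alike, 1 of them is the lowest in about 1 in 6 measures and the highest in as many. The 3 shares above were chosen from the 47 because the wild type lay outside, so they are given without a test. In the other shares by run length it lay within the range. Gaps standing alone made up 49.7% to 59.4% against 57.3%, and gaps in runs of 2 made up 9.36% to 16.6% against 15.9%. Stray calls in runs of 2 made up 23.5% in the wild type and 22.1% to 24.4% in the heterozygotes. All of the first 3 calls were unmethylated on 3.13%, 1.34%, 2.31%, 2.37% and 2.07% of their mostly methylated reads and on 0.794% of those of the wild type. All of the last 3 were unmethylated on 0.447%, 0.403%, 0.462%, 1.66% and 1.88%, and on 0 of 756 in the wild type, which allows at most 0.397%. In both cases the wild type lay below the 5 heterozygotes, and the differences were not tested. For the last 3 calls, heterozygotes 1 to 3 were at or under the share that 3 reads make up (0.671%, 0.403% and 0.462%).

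**Figure D5:**
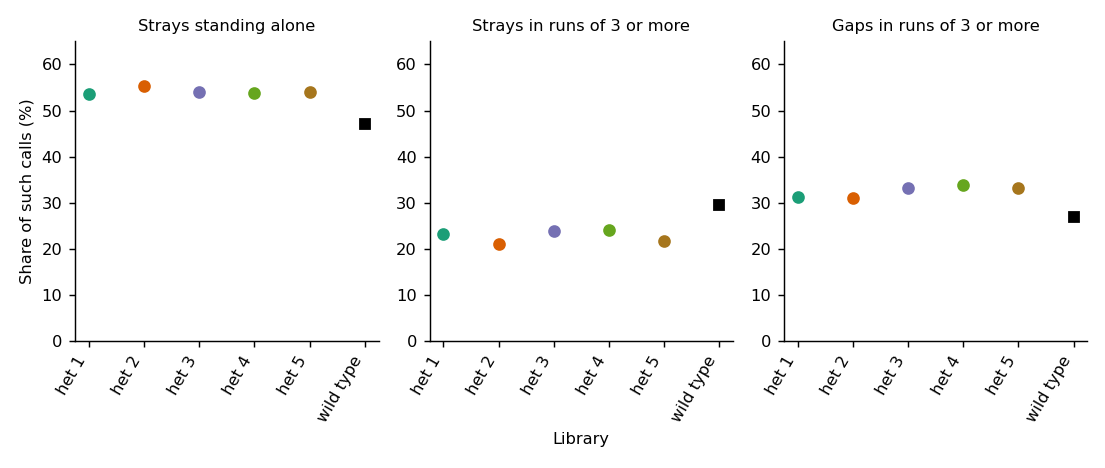
Share in percent (y axis) of stray calls that stood alone, of stray calls in runs of 3 or more, and of gaps in runs of 3 or more, in each library (x axis; circles are the 5 heterozygotes and the square is the wild-type tail). In each panel the heterozygotes lie close together and the wild type lies outside their range, at 47.0%, 29.5% and 26.9%.

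Between reads of the heterozygotes followed the contour of the amplicon, with the lowest level in its trough. On the 109 to 144 such reads per animal called at every CpG, the level was 59.8% ± 2.81 over CpGs 55 to 101, 25.5% ± 4.01 over CpGs 108 to 149 and 47.3% ± 2.06 over CpGs 157 to 273 (SD, n = 5). The wild type had 59.6%, 21.9% and 51.0%, and in the last segment it lay above all 5 animals. The state changed between neighbouring CpGs at a median of 8 to 10 places per between read in the heterozygotes and at 8 in the wild type. Reads with a single change, methylated on one side and unmethylated on the other, made up 7.33% ± 1.93 of them against 6.62%.

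The mothers' genotype gives a reference at the egg. In MII oocytes the IG-CGI level was 0.301% in the wild-type library and 96.3% and 84.1% in the 2 Gzf1 knockout libraries, measured on the same amplicon reference. No read of the knockout oocytes was mostly unmethylated, with 0 of 1472 and 0 of 786 reads. Counts of 0 allow shares of at most 0.204% and 0.382% if the reads are independent. The 1068 and 541 knockout oocyte reads called at every CpG held 26 and 109 distinct patterns. In the heterozygotes 905 to 1415 such reads held 373 to 579 patterns. The bounds therefore hold for PCR reads and are not limits on the share of oocyte copies. In the tails of heterozygotes from knockout mothers 42.2% to 51.0% of reads were mostly unmethylated. Oocytes hold only maternal copies and tails hold both parents' copies, and the oocytes were not those from which these animals grew, so the values are set side by side and were not tested. The dead knockout newborn, which has the read-name prefix of the heterozygotes, had a level of 75.8%, with 67.5% of reads mostly methylated and 6.85% mostly unmethylated. The reads do not carry a parental label here, so it was not measured which parent a methylated or unmethylated read came from.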

How the data were processed

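Per the labels' protocols, tail DNA went through bisulfite conversion with a Zymo Lightning kit and a nested PCR specific to the locus, and Plasmidsaurus sequenced the product on nanopores. The deposited files hold 1 call (Z methylated, z unmethylated) per read and CpG on the original top strand, which the authors' files name as output of the Bismark methylation extractor 0.22.3, per the file headers. Bismark 0.24.2 and the mm10 build stand in the submitters' processing notes. The sources used here give no aligner settings, read filters or conversion rates, and non-CpG calls were not used. Gene positions are from the RefSeq table of GRCm38.p6, the mm10 assembly.

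An amplicon CpG is a position called in at least 10% of a library's reads, and at most 7 calls per heterozygous library lay elsewhere. A library's level averages the CpGs that have 10 or more calls. Named CpGs are the 3 highest and 3 lowest in level, difference from wild type, SD, gap rate and stray rate; exceptions are marked. Exact permutation tests (two-sided) compared libraries, and Fisher's exact test (two-sided) compared calls at a CpG, with p-values adjusted after Benjamini and Hochberg and a threshold of 0.05. Pairs of heterozygotes were also compared by chi-square tests of frequent read patterns, and 9 of 10 differed. Scripts were tested on simulated data. The members, lists and tests were chosen with earlier results of these data known. The software was Python 3.11.15, scipy 1.17.1 and numpy 2.4.6.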

Additional observations from a re-analysis of the deposited data

Results flagged for a closer look

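Heterozygote 2 stood apart from the other 4 in 3 of the 33 values that were examined for a single distant library, with a gap to its nearest neighbour larger than 0.71 of the whole range of the 5. Its mean level of 53.4% lay 0.753 of the range above the next animal. Its share of mostly methylated reads, 47.7%, lay 0.835 of the range above the next. Its level at CpG 147, 48.5%, lay 0.744 of the range above the next. All 3 values are computed from the same reads, so they are not independent of each other. Chance alone flags about 1 in 20 groups by this criterion. No animal was flagged in the share of mostly unmethylated or between reads, in the gap rate or in the stray rate.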

How the results depend on the processing

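The differences from wild type in mean level, in mostly methylated and in mostly unmethylated reads kept their sign under every alternative run, and none could pass the permutation test, whose smallest p is 0.167. The ranges were -4.53 to -2.90, -5.98 to -3.71 and 2.97 to 5.17 points with 1 heterozygote left out, and -4.42 to -3.14, -5.66 to -3.76 and 0.544 to 4.69 points otherwise. The stray rate difference stayed positive, at 0.105 to 0.745. The gap rate difference (0.090 per 100 calls) had no stable sign. It was -0.118 with only reads called at every CpG, -0.021, -0.298 and -0.137 with class bounds of 80% and 20%, 60% and 40%, and 90% and 10%, -0.228 without the 3 first and 3 last CpGs, and -0.066 to 0.183 with 1 heterozygote left out, the negative value being that without heterozygote 2. The difference in between reads (0.499 points) was -0.373 points with identical patterns counted once, 1.44 and 3.41 points with bounds of 80% and 20% and of 90% and 10%, and 0.170 to 0.812 points with 1 heterozygote left out. The number of CpGs called in all 5 was 0 at every minimum difference. Every CpG passed the coverage minima of 5, 30 and 100 calls, so these could change neither this count nor the mean level. The number of pairs that differed (6 of 10) was 2 to 5 with 1 heterozygote left out, which leaves fewer pairs, 0 with a minimum of 20 points and 8 with adjustment over all pairs.

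Of the alternatives chosen after seeing the data, stray calls standing alone stayed 3.53 to 7.82 points above the wild type, and gaps in runs of 3 or more 1.59 to 5.96 points above it. With bounds of 60% and 40% the latter difference was 1.59 points and with 80% and 20% it was 3.41 points, in both cases with the wild type inside the range of the heterozygotes. With identical patterns counted once, all 12 named gap and stray rates moved by more than 1 SD, for example from 9.41% to 19.5% for gaps at CpG 108 and from 42.1% to 49.6% for stray calls at CpG 59, and no other alternative moved any of the 27 values at named CpGs as far. No paired analysis was possible because the wild-type group has 1 library and no number links it to a heterozygote. With 1 wild-type library, the spread between wild-type animals was not measured.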

Other observations

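Odd calls at neighbouring CpGs came together on the same reads in every heterozygote. Of mostly unmethylated reads with a stray call at CpG 55, 74.6% ± 5.52 (SD, n = 5) also had one at CpG 59, against 35.2% ± 4.99 of those without, and in the wild type the shares were 62.3% and 34.7%. For CpG 77 after CpG 72 the shares were 42.9% ± 1.97 and 5.36% ± 2.33, and in the wild type 40.6% and 4.73%. Gaps did the same. On mostly methylated reads with a gap at CpG 72, 63.4% ± 9.70 also had one at CpG 77, against 4.19% ± 1.77 of those without, and in the wild type the shares were 34.5% and 3.07%. With a gap at CpG 101, 57.1% ± 7.99 had one at CpG 108, against 4.97% ± 1.5, and in the wild type the shares were 65.5% and 5.12%. The share with both gaps was thus below all 5 heterozygotes in the wild type for CpG 77 after CpG 72 and within their range for CpG 108 after CpG 101. These pairs of CpGs were picked after the rates were seen, and the gap shares rest on 26 to 61 reads with a gap at the first CpG of the pair.

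Most distinct read patterns were seen in the library of 1 animal only. Among the 5711 heterozygous reads called at every CpG there were 1984 distinct patterns, of which 1756 occurred in 1 animal only and 43 in all 5. Of those 43 patterns, 41 were also found in the wild-type tail, 20 were mostly methylated, 22 mostly unmethylated and 1 was between. They held 43.7% to 49.2% of the heterozygous reads and 47.6% of the wild-type reads. Patterns seen once in a library made up 27.1% to 39.0% of heterozygous reads and 26.7% of wild-type reads. How many of the patterns found in 1 animal would recur in others with more reads was not measured.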
